A study of Mus musculus with 2 samples.

Results

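The 10 genes described here encode transcription factors of the epithelial-to-mesenchymal transition (EMT) and its opposing programme: Zeb1, Zeb2, Snai1, Snai2, Twist1, Twist2 and Prrx1 on the mesenchymal side and Grhl2, Ovol1 and Ovol2 on the epithelial side. They were chosen by name and not by a measured value, and they are 10 of the 32285 genes in the deposited matrices. All 10 were present in both matrices. Mouse tumours grown in the pancreas from injected KPC cells, a pancreatic cancer line, were dissociated and read by droplet single-cell RNA-seq. One library came from 1 mouse injected with KPC-shV cells, which carry the control vector, and the other from 1 mouse injected with KPC-shZEB1 cells, which carry a short hairpin against Zeb1. The labels give both animals only as an orthotopic mouse model and name no strain, age or drug treatment. The study's text places these tumours under gemcitabine, a nucleoside analogue used as chemotherapy, a treatment the labels leave out. Both mice are hosts with their own fibroblasts, vessels and leukocytes, and the hairpin was carried by the injected cells only.

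The ZEB and SNAI proteins are zinc-finger repressors that bind E-boxes in the promoters of epithelial adhesion genes such as Cdh1. TWIST proteins are basic helix-loop-helix factors and PRRX1 is a homeodomain factor, and both are best known from embryonic mesenchyme and connective tissue. GRHL2 and the OVOL zinc-finger proteins maintain epithelial gene expression, and they and ZEB1 are known to repress each other in epithelial and carcinoma cells. Several of these factors also work outside EMT: Zeb2 in myeloid cells and effector lymphocytes, Zeb1 in T-cell development, and Snai2, Twist1 and Prrx1 in mesenchymal development.

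The libraries held 12594 and 13271 barcodes with 130941086 and 143461224 unique molecular identifiers (UMIs, each counting 1 captured transcript molecule). Here and below, where values stand as a pair the library labelled KPC-shV comes first and the library labelled KPC-shZEB1 second. After filters on depth, mitochondrial share and doublets, 11398 and 12104 cells remained, with a median of 3720 and 4252 UMIs, and 46 barcode sequences occurred in both libraries. A level is given as CPM, the UMIs of a gene per 1000000 UMIs of all cells of a class in 1 library, and a bracketed range is its exact 95% interval. With 1 library per group the intervals cover counting error only, the libraries' difference cannot be told apart from that between 2 mice, and no p-value is given. Each level is read beside a background level, which is what RNA released into the suspension would contribute, estimated from genes of other cell types.

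Clusters were made without the 10 genes and without the epithelial, mesenchymal and regulator lists, and were then named from cell type markers. The injected cells were taken to be the 4 clusters high in Cdkn2a and low in Xist, a rule set after the clusters were seen, and they are called Cdkn2a-high. Cdkn2a lay between 237 and 613 CPM in their 3 classes and between 5.65 and 36.2 CPM in 13 other classes, and Xist between 36.0 and 60.6 CPM against 253 to 1422 CPM. The keratin genes Krt8 and Krt18, which the rule did not use, ran from 549 to 2050 and from 553 to 2025 CPM in these classes and did not exceed 235 and 167 CPM in the 13 others, but a small cluster led by Cp and Pkhd1, low in Cdkn2a, had Krt8 at 1713 and 2451 CPM and Krt18 at 2016 and 2399 CPM. These 3 classes are called Epcam-high (998 and 993 cells), Prg4-Grem1 (484 and 195 cells) and Ralyl (9 and 228 cells), the last pair after genes among their 10 leading ones. Of the 8 tumour markers, 8 were detected in both Epcam-high clusters and 5 in the Ralyl cluster, but the Prg4-Grem1 cluster had only 2 of them beside 5 of 7 fibroblast markers, so that its markers alone would name it fibroblast-like and it is given no cell type name here. The smaller Epcam-high cluster (313 and 306 cells), with a median of only 2237 UMIs, also had 4 of 7 fibroblast markers. The Ralyl cluster was almost wholly from the library labelled KPC-shZEB1, so that its values are those of 1 library.

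Zeb1, the targeted gene, checks the labels, and its RNA was no lower in Cdkn2a-high cells labelled KPC-shZEB1. Over all Cdkn2a-high clusters it stood at 167 CPM (163 to 171) and 189 CPM (184 to 194), a ratio of 1.13 (1.09 to 1.17), with a background level of 34.3 and 56.6 CPM. Without the Ralyl cluster the ratio was 1.08 (1.03 to 1.12), and with the background subtracted it was 0.998. The ratio was 1.18 (1.12 to 1.25) in the Epcam-high class, from 129 to 153 CPM, and 1.23 (1.16 to 1.31) in the Prg4-Grem1 class, from 219 to 269 CPM. Before any background was subtracted, Zeb1 RNA was thus higher, against the label, in both Cdkn2a-high classes with more than a few cells in each library. The ratios within these classes do not take off the background, which was higher in the second library. They therefore do not show that these cells' own Zeb1 RNA was higher. The libraries are named below by their labels only. Reads of a 3′ assay count transcripts and do not measure ZEB1 protein. The study also measured the Zeb1 knockdown in KPC cells and stained Zeb1 in tumour tissue, and neither was examined here.

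Zeb1 was highest in lymphocytes and endothelial-like cells, Zeb2 in myeloid cells, and Twist2 in Cdkn2a-high cells. Snai1 was highest in Prg4-Grem1 cells, followed by endothelial-like and fibroblast-like cells, and Snai2 in pericyte-like, Ralyl and endothelial-like cells. Twist1 and Prrx1 were highest in fibroblast-like, pericyte-like and Ralyl cells. Among the 16 classes Grhl2 and Ovol1 were highest in Epcam-high cells, and they were higher still in the small Cp and Pkhd1 cluster outside them. The plot of levels by class shows all 16 classes with their background.

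**Figure D1:**
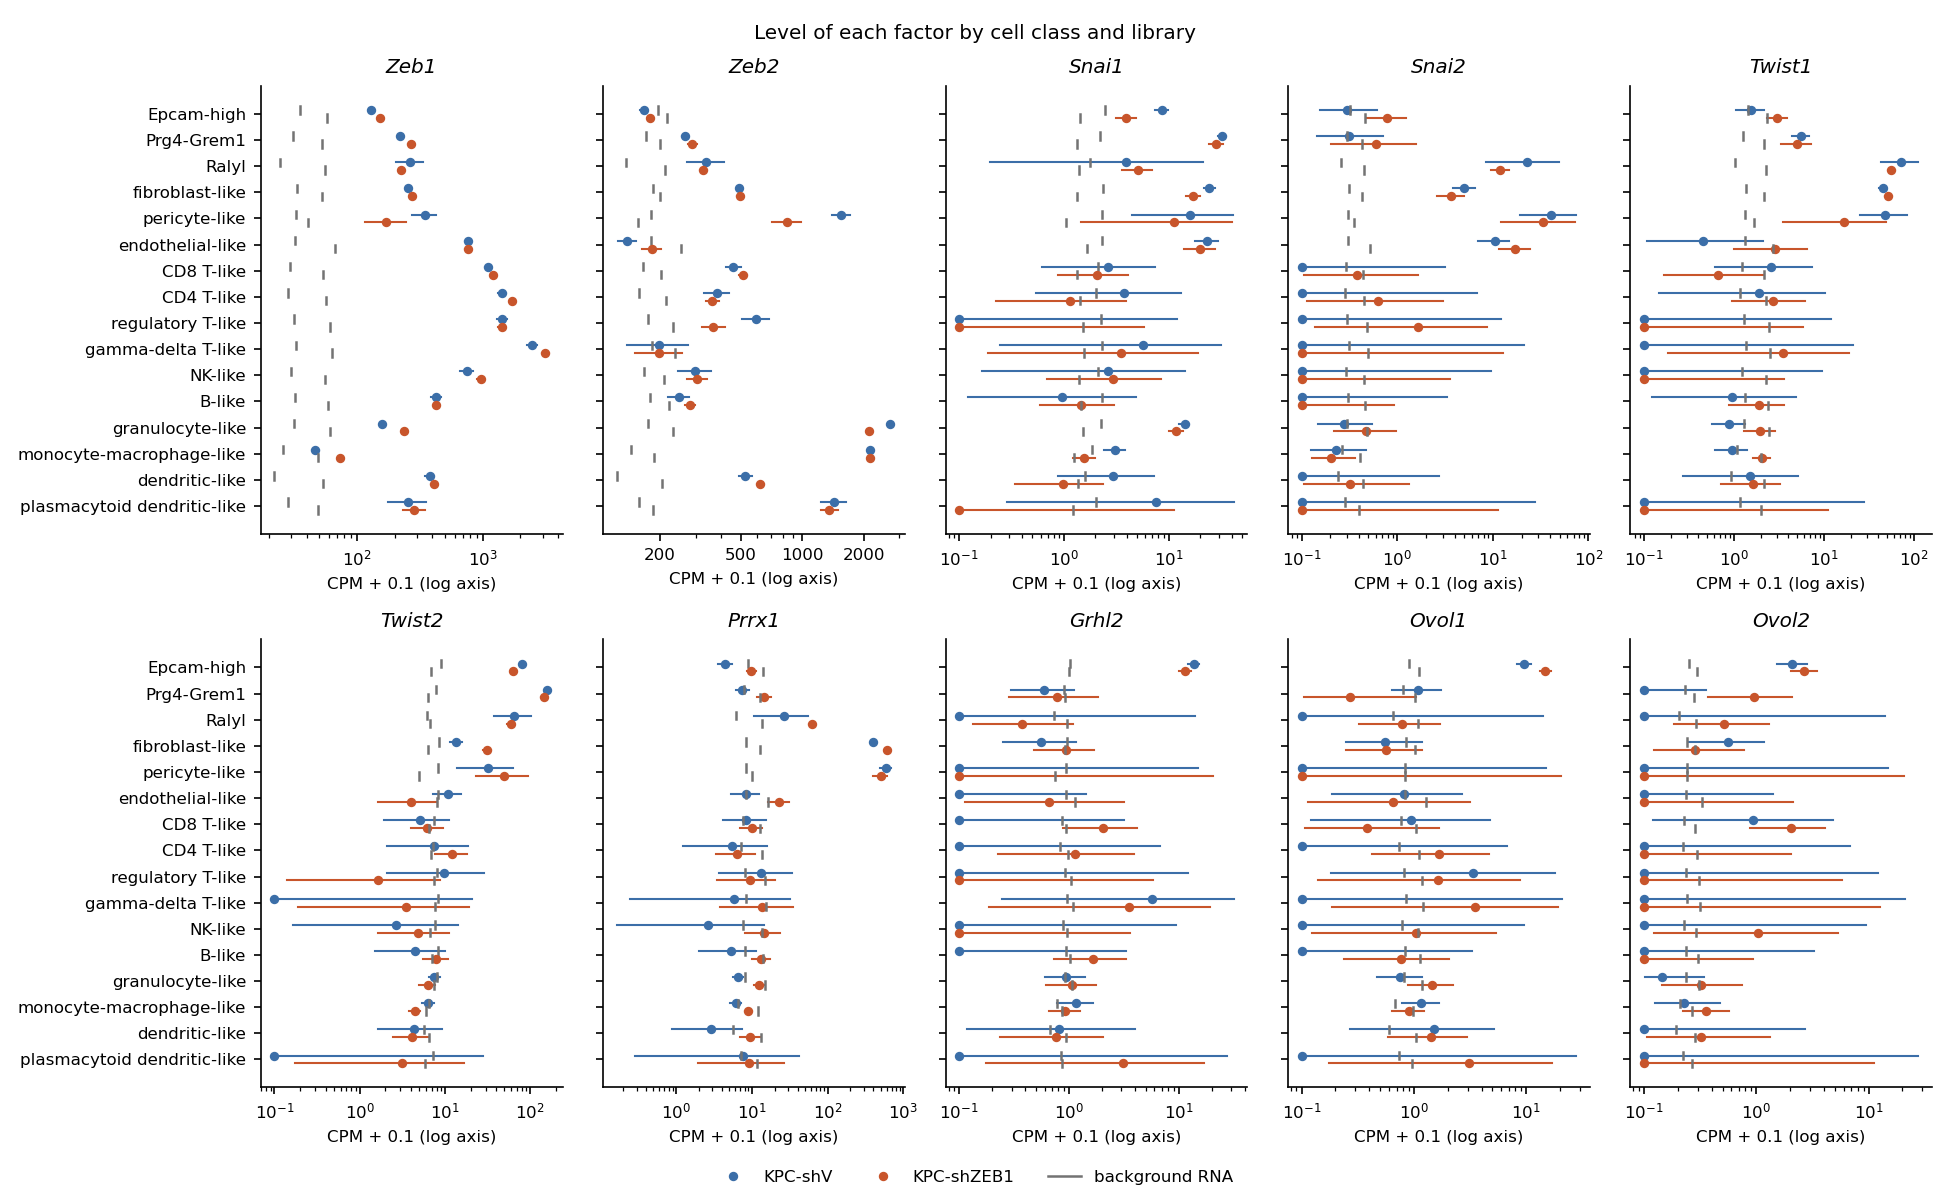
Level of each of the 10 genes, in CPM plus 0.1 on a log axis, in 16 cell classes. Dots are the 2 libraries, coloured by label, horizontal lines are 95% counting intervals and grey ticks mark the estimated background RNA. Zeb1 reached 3146 CPM in gamma-delta T-like cells, Zeb2 2709 CPM in granulocyte-like cells and Prrx1 608 CPM in fibroblast-like cells, whereas Grhl2, Ovol1 and Ovol2 stood clear of the background in few classes.

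Zeb1 (18:5591860-5775467 of GRCm38, plus strand) was carried most strongly by host cells. Gamma-delta T-like cells had the highest level, 2464 and 3146 CPM, followed by CD4 T-like cells with 1434 and 1712 CPM, regulatory T-like cells with 1421 and 1423 CPM and CD8 T-like cells with 1098 and 1215 CPM. NK-like cells and endothelial-like cells followed at 749 and 966 CPM and at 763 and 760 CPM, with NK-like cells the higher of the pair only in the second library. B-like cells stood at 429 and 427 CPM, dendritic-like cells at 380 and 410 CPM and fibroblast-like cells at 256 and 276 CPM. The level over all Cdkn2a-high cells was below that of fibroblast-like cells and of every T, NK and B class. After each cell was thinned to 1000 UMIs, Zeb1 was seen in 11.6% and 15.2% of Cdkn2a-high cells, in 43.2% and 52.4% of endothelial-like cells and in 3.76% and 7.64% of monocyte-macrophage-like cells, which had the lowest level of the large host classes (46.9 and 73.6 CPM over a background of 25.8 and 49.6 CPM). In that order gamma-delta T-like over CD4 T-like, endothelial-like over B-like and Epcam-high over monocyte-macrophage-like cells were separated beyond counting error in both libraries, and several other neighbours had overlapping intervals.

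Zeb2 (2:44983632-45117395, minus strand), the closest relative of Zeb1, was highest in other cells, and over 28 class-and-library points the log2 levels of the pair correlated at r = -0.48, a description only. Granulocyte-like cells stood at 2709 and 2127 CPM, monocyte-macrophage-like cells at 2138 and 2159 CPM and plasmacytoid dendritic-like cells at 1427 and 1359 CPM. Pericyte-like cells, with only 14 and 10 cells, had 1547 and 838 CPM. Among stromal cells, fibroblast-like cells carried Zeb2 at 491 and 493 CPM and endothelial-like cells at 138 and 182 CPM, the latter below their background of 181 and 254 CPM. In Cdkn2a-high cells Zeb2 stood at 208 and 230 CPM over a background of 191 and 213 CPM and was hardly above it. The Prg4-Grem1 class, at 265 and 289 CPM over 171 and 199 CPM, and the Ralyl cells, at 337 and 327 CPM, lay further above it. In pericyte-like cells both genes were lower in the second library, with ratios of 0.498 (0.319 to 0.758) for Zeb1, from 346 to 172 CPM, and 0.541 (0.446 to 0.655) for Zeb2. In regulatory T-like cells Zeb2 went from 591 to 366 CPM, a ratio of 0.62 (0.509 to 0.756), while CD8 T-like cells had 459 and 512 CPM and CD4 T-like cells 381 and 362 CPM.

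The balance of the pair is given as the share of Zeb1 among the UMIs of Zeb1 and Zeb2 together. That share was 92.6% and 94.1% in gamma-delta T-like cells, 84.7% and 80.7% in endothelial-like cells, 79% and 82.5% in CD4 T-like cells and 63.4% and 60.2% in B-like cells. It was 44.5% and 45.1% in Cdkn2a-high cells and 34.3% and 35.9% in fibroblast-like cells. No background was subtracted from these shares. Zeb2 was hardly above its background in Cdkn2a-high cells and below it in endothelial-like cells, so their shares do not give the balance of the cells' own RNA. It fell to 18.3% and 17.0% in pericyte-like cells, 5.56% and 10.1% in granulocyte-like cells and 2.15% and 3.29% in monocyte-macrophage-like cells.

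Over the sub-clusters of T-like and NK-like cells the pair ran in opposite directions. The CD8 T-like sub-cluster led by Cd8b1 and Fam241a, in which Lef1 (a factor of naive T cells) stood at 1906 CPM and the granule protease gene Gzma at 14.1 CPM over both libraries, had Zeb1 at 2554 CPM (2290 to 2841) and 2287 CPM (2183 to 2395). Its Zeb2 was 82.6 CPM (41.3 to 148) and 166 CPM (139 to 197), at or below the background of 163 and 221 CPM. The CD8 T-like sub-cluster led by Gm156 and Gzma, with Gzma at 1386 CPM and Lef1 at 32.8 CPM, had Zeb1 at 906 CPM (804 to 1018) and 934 CPM (878 to 992) and Zeb2 at 982 CPM (876 to 1098) and 923 CPM (868 to 981). The Zeb1 share of the pair was 96.9% (94.5 to 98.4) and 93.2% (92.0 to 94.3) in the first and 48.0% (43.9 to 52.1) and 50.3% (48.1 to 52.5) in the second. Both members therefore passed 1.5-fold between these sub-clusters in opposite directions, where 49.6% and 40.6% of all genes tested passed that fold in either direction, so a pass by itself is common here. The sub-clusters held 23 and 154 cells and 36 and 133 cells.

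CD4 T-like and NK-like sub-clusters were arranged in the same way. Zeb1 was 2443 and 1909 CPM in the CD4 T-like sub-cluster led by Lef1 and St8sia6, where Zeb2 was 139 and 144 CPM, and 924 and 1008 CPM in the sub-cluster led by Ccl1 and Penk, where Zeb2 was 583 and 718 CPM. Among NK-like cells the sub-cluster led by Gzma and Klra4 had Zeb1 at 601 and 817 CPM and Zeb2 at 406 and 329 CPM, and the other had 895 and 1242 CPM and 192 and 257 CPM. Over the sub-clusters of T, NK and related cells, the log2 levels of the pair correlated at r = -0.66 over 12 sub-clusters and r = -0.72 over 14. Sub-clusters of 1 library share its depth and background and are not independent, so no p-value is attached. Zeb2 in the Lef1 and St8sia6 sub-cluster lay below its background, so the low Zeb2 end of this relation rests partly on background RNA. In single T-like cells thinned to 1000 UMIs, Zeb1 was seen in 55.4% and 54.9% of cells with a Zeb2 UMI and in 70.1% and 69.5% of cells without one.

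**Figure D2:**
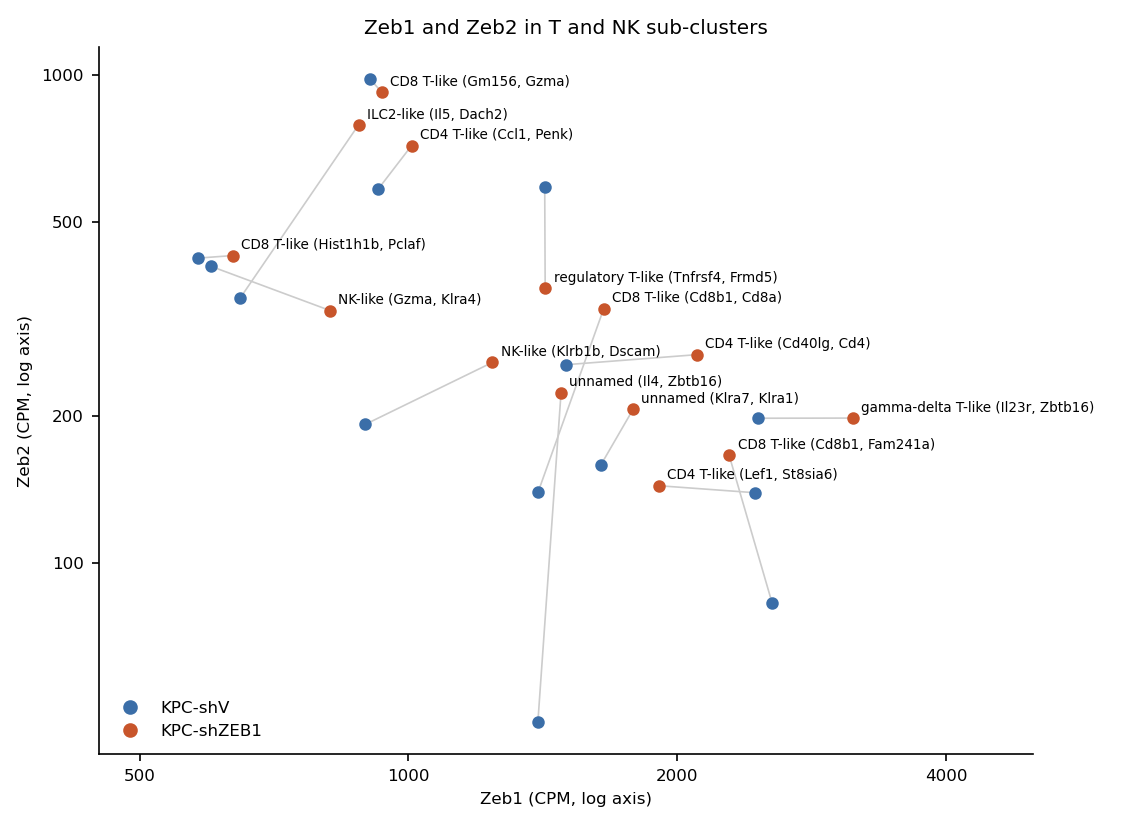
Zeb1 level against Zeb2 level, both in CPM on log axes, in each sub-cluster of T, NK and related cells, with a grey line joining the 2 libraries. Sub-clusters led by Lef1 or Cd8b1 sit at high Zeb1 and low Zeb2, and the Gm156 and Gzma sub-cluster sits where the 2 levels are near each other, at 906 and 982 CPM in the library labelled KPC-shV.

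Snai1 (2:167538195-167542814, plus strand) differed strongly among the Cdkn2a-high classes. It stood at 32.4 CPM (29.5 to 35.5) and 28.4 CPM (24.3 to 33.0) in Prg4-Grem1 cells, and at 8.50 CPM (7.27 to 9.87) and 3.81 CPM (3.02 to 4.75) in Epcam-high cells over a background of 2.39 and 1.33 CPM. Fibroblast-like cells had 24.4 and 17.1 CPM, endothelial-like cells 23.2 and 19.9 CPM and granulocyte-like cells 14.1 and 11.6 CPM, so that Snai1 was also found in leukocytes. Snai1 was lower in the library labelled KPC-shZEB1 in Epcam-high cells, with a ratio of 0.449 (0.339 to 0.589), and in fibroblast-like cells, with a ratio of 0.698 (0.576 to 0.846). The ratio in Epcam-high cells ran from 0.406 to 1.15 over the alternative settings, and the value above 1 came when each library was clustered alone. In Prg4-Grem1 cells it was 0.878 (0.731 to 1.05), an interval that includes no change, and in monocyte-macrophage-like cells, near the background at 2.97 and 1.46 CPM, it was 0.493 (0.341 to 0.709). The 250 bases before the start of Snai1 are shown because they hold the E-box that SNAI and ZEB proteins bind, spelled CAGGTG or CACCTG on the printed strand and set in capitals, 126 bases before the start (GRCm38.p6 from RefSeq, chr2:167537945-167538194, plus strand).
Snai1: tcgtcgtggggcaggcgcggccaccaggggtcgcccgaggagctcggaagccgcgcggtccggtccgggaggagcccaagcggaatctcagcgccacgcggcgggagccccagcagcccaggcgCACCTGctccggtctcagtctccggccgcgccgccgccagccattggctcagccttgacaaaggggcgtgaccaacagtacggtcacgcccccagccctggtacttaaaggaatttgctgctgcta
Of 32817 promoter windows of this length, 17.2% held at least 1 such box, and the match is a description of letters and not of binding.

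Snai2, known as Slug (16:14705852-14709385, plus strand), was rare. Its highest levels were in pericyte-like cells (40.2 and 33.3 CPM from 10 and 6 UMIs), Ralyl cells (22.7 and 11.8 CPM from 6 and 86 UMIs) and endothelial-like cells (10.3 and 17.1 CPM). Fibroblast-like cells had 4.94 and 3.52 CPM. In Epcam-high cells 4 and 14 UMIs gave 0.199 and 0.676 CPM, and in Prg4-Grem1 cells 3 UMIs were counted in each library. The immune classes were at the background. The ratio over all Cdkn2a-high clusters, 8.09 (4.53 to 15.7), rested on the Ralyl cluster, and 7 and 17 UMIs remained without it.

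Twist1 and Twist2 encode closely related proteins. Ralyl and pericyte-like cells carried both, whereas fibroblast-like and the other Cdkn2a-high cells differed in which of them they carried. Twist2 (1:91801461-91848028, plus strand) belonged to the Cdkn2a-high classes, at 159 and 144 CPM in Prg4-Grem1 cells, 79.2 and 63.6 CPM in Epcam-high cells and 64.4 and 59.4 CPM in Ralyl cells. Fibroblast-like cells carried far less Twist2, 13.5 and 31.1 CPM over a background of 8.37 and 6.25 CPM. Twist1 (12:33957671-33959829, plus strand) stood at 45.2 and 52.1 CPM in fibroblast-like cells and at 72.0 and 56.5 CPM in Ralyl cells, against 5.48 and 4.90 CPM in Prg4-Grem1 cells and 1.44 and 2.94 CPM in Epcam-high cells, where the background was 1.34 and 2.22 CPM. Fibroblast-like over Prg4-Grem1 cells, Twist1 was 8.26-fold (6.49 to 10.6) and 10.6-fold (7.32 to 16) higher, and Twist2 stood at ratios of 0.0847 (0.0712 to 0.1) and 0.216 (0.190 to 0.245).

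Prrx1 (1:163245119-163313710, minus strand) marked the host stroma. It stood at 398 and 608 CPM in fibroblast-like cells and 587 and 499 CPM in pericyte-like cells. After thinning to 10000 UMIs, 88.0% and 94.0% of fibroblast-like cells had a Prrx1 UMI. Epcam-high cells had 4.32 and 9.70 CPM and Prg4-Grem1 cells 7.37 and 14.4 CPM, none of them clearly over backgrounds of 8.79 and 13.7 CPM and of 7.71 and 12.6 CPM. Ralyl cells were the exception among Cdkn2a-high cells, with 26.5 and 62.0 CPM from 7 and 451 UMIs. Fibroblast-like over Prg4-Grem1 cells, 5 of 7 members tested passed 1.5-fold in the first library and 5 of 6 in the second, where 58.2% and 57.3% of all genes passed.

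The epithelial factors were found in few classes. Grhl2 (15:37233036-37363569, plus strand), a direct activator of Cdh1, stood at 13.6 and 11.3 CPM in Epcam-high cells and at 0.491 and 0.676 CPM in Prg4-Grem1 cells. Ovol1 (19:5549136-5560646, minus strand) had 9.49 and 14.6 CPM in Epcam-high cells and 14 and 1 UMIs in Prg4-Grem1 cells. Ovol2 (2:144305175-144332146, minus strand) stood at 1.99 and 2.56 CPM in Epcam-high cells, and no UMI of it was counted in Prg4-Grem1 cells of the first library, for which the interval reaches 0.259 CPM. Outside the Cdkn2a-high clusters these genes were seen above background in the small cluster led by Cp and Pkhd1, with Grhl2 at 57.6 and 60.3 CPM from 11 and 34 UMIs in 7 and 27 cells and Ovol1 at 41.9 and 35.5 CPM.

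Setting the Cdkn2a-high classes side by side within 1 library shows which factors each held. Prg4-Grem1 over Epcam-high cells, 8 of 8 members tested passed 1.5-fold in the first library and 8 of 9 in the second, where 28.6% and 27.6% of all genes tested passed. Zeb1 was 1.69-fold (1.61 to 1.78) and 1.76-fold (1.66 to 1.87) higher, Snai1 3.81-fold (3.19 to 4.56) and 7.45-fold (5.67 to 9.86) and Twist2 2.01-fold (1.88 to 2.14) and 2.26-fold (2.07 to 2.47). Grhl2 stood at a ratio of 0.0361 (0.0144 to 0.0753) and 0.0599 (0.0162 to 0.155), and Ovol1 at 0.104 (0.0555 to 0.178) in the first library and, from 1 UMI, 0.0116 (0.000292 to 0.0649) in the second. Zeb1 thus differed less between these classes than the epithelial factors did. The counts above include Zeb2 and Twist1 and, in the first library, Prrx1. In Epcam-high cells these genes were near or below their background, so their ratios are not those of the cells' own RNA. Epcam, which split the classes, is itself in the epithelial list, so the direction of that list was partly set by the split: 14 of 16 epithelial genes were lower in each library, with a median log2 ratio of -3.83 and -3.52, and 8 and 10 of 16 mesenchymal genes were higher, with medians of 0.68 and 0.81.

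Ralyl cells differed in which factors were high. Over Epcam-high cells of the library labelled KPC-shZEB1, 7 of 10 members passed 1.5-fold, where 32.8% of all genes did. Twist1 was 19.2-fold (14.6 to 25.5) higher, Snai2 17.5-fold (9.88 to 33.3) and Prrx1 6.39-fold (5.40 to 7.58), while Grhl2 stood at a ratio of 0.0243. Over Prg4-Grem1 cells 5 of 7 members passed, where 24.4% of all genes did: Twist1 was 11.5-fold (7.90 to 17.4) and Snai2 23.3-fold (7.71 to 115) higher, and Snai1 and Twist2 stood at ratios of 0.174 (0.118 to 0.251) and 0.412 (0.366 to 0.463). Both Cdkn2a-high classes with low Epcam thus held little of the epithelial factors. Snai1 and Twist2 were higher in Prg4-Grem1 cells, and Snai2, Twist1 and Prrx1 in Ralyl cells. Ralyl cells carried Twist2 too, at 64.4 and 59.4 CPM.

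**Figure D3:**
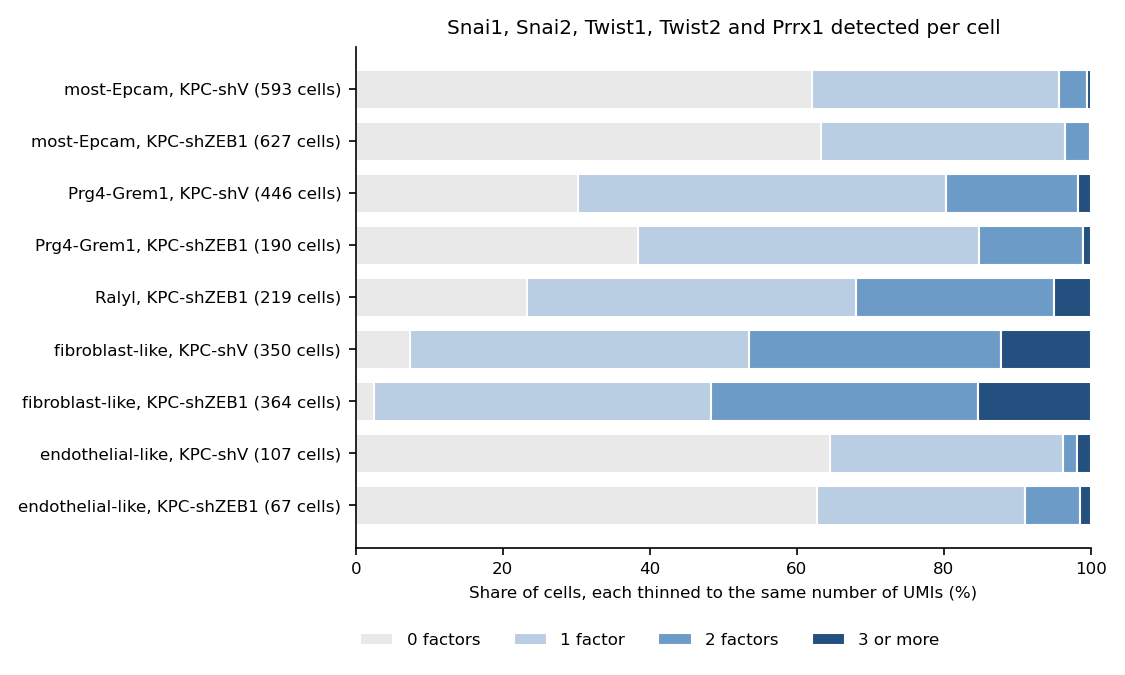
Share of cells with UMIs of 0, 1, 2 or at least 3 of Snai1, Snai2, Twist1, Twist2 and Prrx1, in percent of cells thinned to 10000 UMIs, by class and library. At least 3 of the 5 were seen in 0.506% and 0.159% of cells of the most Epcam-rich cluster, 1.79% and 1.05% of Prg4-Grem1 cells, 5.02% of Ralyl cells and 12.3% and 15.4% of fibroblast-like cells.

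Single cells rarely held several mesenchymal factors at this depth. None of the 5 was seen in 62.1% and 63.3% of cells of the most Epcam-rich cluster, in 30.3% and 38.4% of Prg4-Grem1 cells, in 23.3% of Ralyl cells of the library labelled KPC-shZEB1 and in 7.43% and 2.47% of fibroblast-like cells. Without thinning, at least 3 were seen in 2.04% and 2.47%, 10.1% and 13.3%, 45.2%, and 38.0% and 38.9% of the same classes, so these shares follow depth, and so does the order of Ralyl and fibroblast-like cells.

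The most Epcam-rich cluster (685 and 687 cells) was itself mixed in these factors. Among its cells with at least 10000 UMIs, 97 of 593 (16.4%, 13.5 to 19.6) and 110 of 627 (17.5%, 14.6 to 20.8) had a UMI of Grhl2, Ovol1 or Ovol2 after thinning, and total depth was similar on both sides of the split, with medians of 30853 against 29562 UMIs and 29737 against 28273 UMIs. Zeb1 stood at 47.6 CPM in cells with such a UMI and 152 CPM in cells without one in the library labelled KPC-shV, a ratio of 0.314 (0.264 to 0.372), and at 72.9 and 178 CPM in the other library, a ratio of 0.408 (0.357 to 0.464). The background of Zeb1 in this cluster was 33.1 and 57.5 CPM, so that the cells with an epithelial factor were close to it. Twist2 moved with Zeb1, at ratios of 0.184 and 0.340 (0.271 to 0.421), and Zeb2, itself near background, stood at 0.878 and 1.04 (0.956 to 1.14). Snai1 stood at 0.335 and 0.542 (0.225 to 1.13). Of the 5 members tested that did not make the split, 3 were lower past 1.5-fold in each library (Zeb1, Snai1 and Twist2), where 16.5% and 12.0% of all genes passed in either direction.

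Epithelial and mesenchymal genes followed the same split. In cells with an epithelial factor, 14 and 12 of 16 epithelial genes were higher past 1.5-fold, with median log2 ratios of 1.24 and 0.93. Cdh1, which encodes E-cadherin, stood at 685 against 303 CPM and 729 against 377 CPM, Epcam at 1176 against 433 CPM and 1051 against 526 CPM, and Rab25, a small GTPase of epithelial trafficking, at 101 against 28.3 CPM and 111 against 25.7 CPM. Vim, the intermediate filament vimentin, stood at 265 against 1243 CPM and 484 against 1320 CPM, and 7 and 6 of 15 mesenchymal genes were lower past 1.5-fold, while 1 and 2 were higher, among them Itgb3 at 2.31-fold and 1.60-fold. Krt8 had a ratio of 1.01 in both libraries and Cdkn2a 1.03 and 1.15, so that these markers differed little between the sides. Xist stood at 41.4 against 34.2 CPM and 44.3 against 50.4 CPM. The windows before the starts of 3 of these epithelial genes are shown because they were picked for holding more than 1 E-box of the kind ZEB1 is known to bind (GRCm38.p6 from RefSeq, plus strand, E-boxes in capitals): Epcam, which encodes an adhesion molecule, at chr17:87635729-87635978, the tight-junction gene Cldn7 at chr11:69965171-69965420 and the polarity gene Crb3 at chr17:57061951-57062200.
Epcam: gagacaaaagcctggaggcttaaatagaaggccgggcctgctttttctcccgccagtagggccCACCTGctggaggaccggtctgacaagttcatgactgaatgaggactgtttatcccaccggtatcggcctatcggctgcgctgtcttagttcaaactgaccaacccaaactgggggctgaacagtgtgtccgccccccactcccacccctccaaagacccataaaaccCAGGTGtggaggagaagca
Cldn7: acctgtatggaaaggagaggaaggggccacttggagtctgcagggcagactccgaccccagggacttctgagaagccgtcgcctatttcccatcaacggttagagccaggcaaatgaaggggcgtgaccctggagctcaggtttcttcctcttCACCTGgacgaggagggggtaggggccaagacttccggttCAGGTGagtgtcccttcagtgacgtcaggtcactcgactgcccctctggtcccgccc
Crb3: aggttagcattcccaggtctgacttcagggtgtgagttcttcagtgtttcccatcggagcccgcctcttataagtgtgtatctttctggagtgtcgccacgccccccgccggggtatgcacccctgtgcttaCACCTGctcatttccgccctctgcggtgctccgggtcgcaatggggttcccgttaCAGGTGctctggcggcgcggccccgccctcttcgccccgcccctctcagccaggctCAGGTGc
Of the epithelial list only these genes and Cldn4 were searched with a match in the table, Cldn4 held 1 box and a second Cldn7 start held 0, so no frequency is drawn from the choice. The boxes lay 187 and 19 bases before the start of Epcam, 97 and 57 before that of Cldn7 and 118, 63 and 7 before that of Crb3. The windows of Twist1, Twist2, Prrx1, Ovol2 and Zeb2 held neither spelling, which says only that these letters are not in them.

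**Figure D4:**
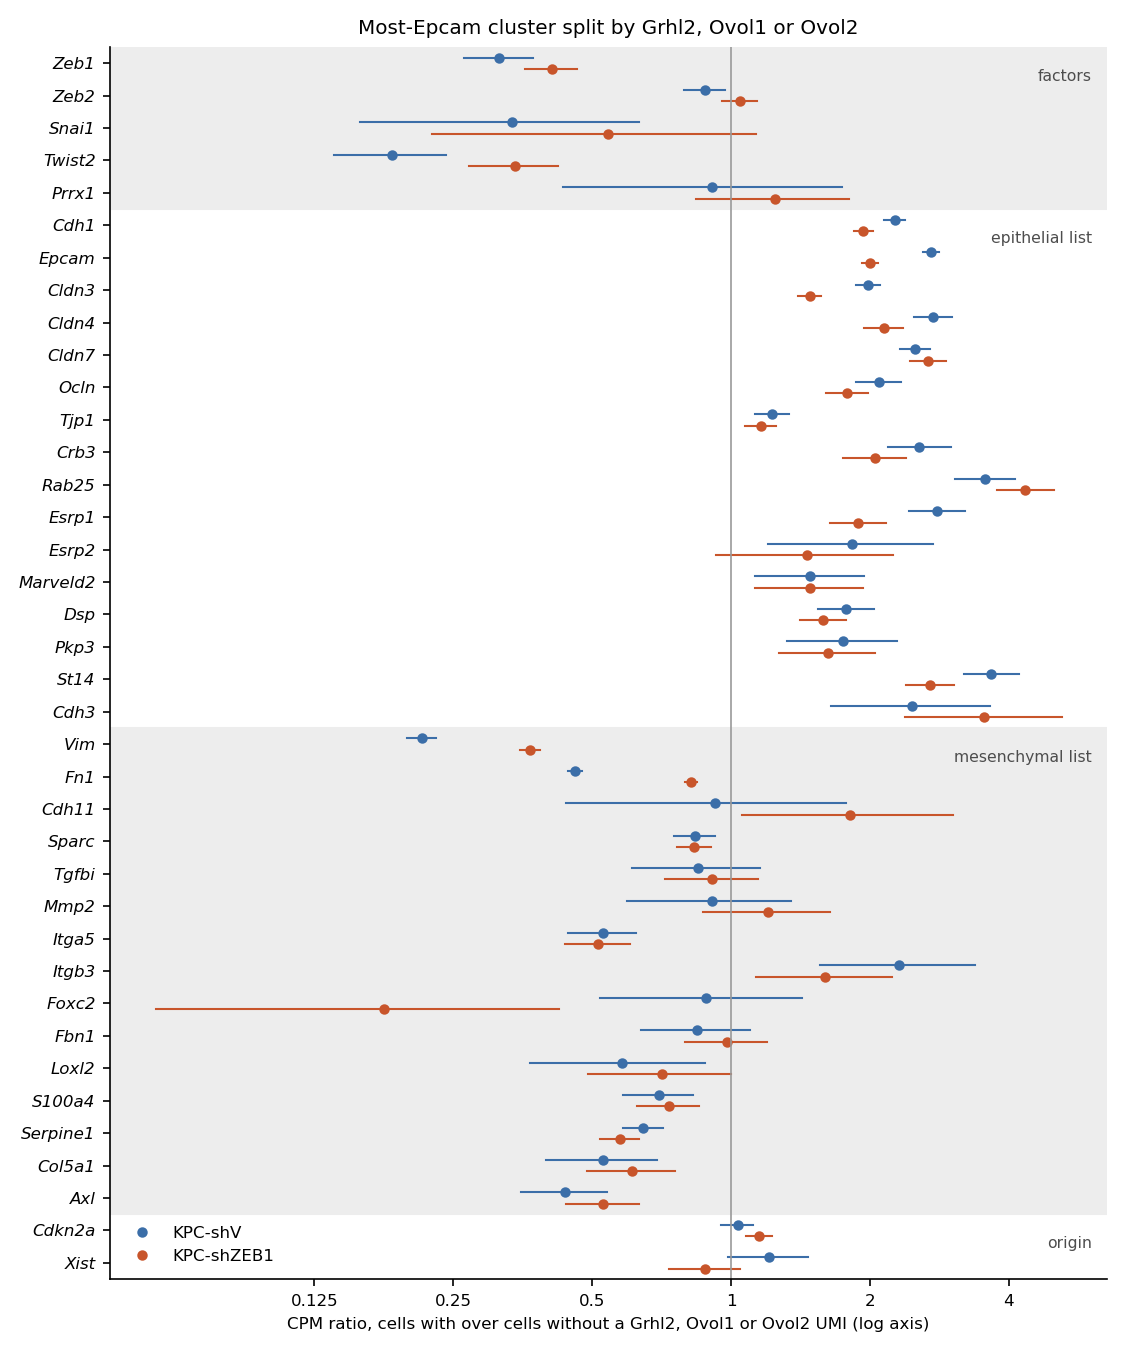
Ratio of CPM in cells with over cells without a Grhl2, Ovol1 or Ovol2 UMI, on a log axis, in the most Epcam-rich Cdkn2a-high cluster of each library, for the mesenchymal factors, epithelial genes, mesenchymal genes and the markers Cdkn2a and Xist. Dots are libraries and lines are 95% counting intervals. Zeb1 sits at 0.314 and 0.408 and Cdh1 at 2.26 and 1.93, while Cdkn2a sits at 1.03 and 1.15.

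The same relation was seen gene by gene in thinned cells of that cluster. A Zeb1 UMI was present in 31.7% and 37.1% of cells with Grhl2 and in 57.2% and 69.6% of cells without it, and in 27.9% and 38.8% against 56.7% and 68.7% for Ovol1. Twist2 was seen in 6.67% and 8.06% of cells with Grhl2 and in 34.1% and 26.2% of the others. Zeb1 was seen about as often with Zeb2 as without it, in 55.3% against 53.0% and 66.2% against 66.9% of cells. Without thinning, and over all Epcam-high cells, Zeb1 was seen in 51.9% of cells with Grhl2 and 51.9% of cells without it in the first library, and in 70.3% and 61.1% in the other, but those with Grhl2 had median depths of 35494 and 29802 UMIs against 15521 and 18346 UMIs.

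A finer clustering (Leiden resolution 2) separated these cells without using the factors. Its cluster led by Epcam (421 and 454 cells) had Grhl2 at 22.5 and 18.0 CPM, Ovol1 at 16 and 23.3 CPM, Zeb1 at 107 and 129 CPM and Twist2 at 25.9 and 26.0 CPM. The cluster led by Cntn5 and Pkhd1 (227 and 203 cells) had Grhl2 at 0.93 and 0.833 CPM, Zeb1 at 175 and 213 CPM and Twist2 at 174 and 127 CPM, with Epcam at 58.6 and 116 CPM against 863 and 916 CPM. Within the first, the Zeb1 ratio of cells with over cells without an epithelial factor was 0.355 and 0.385.

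Between the libraries, the members moved in both directions in Cdkn2a-high cells. Of the 10, 5 were higher and 1 lower past 1.5-fold in the library labelled KPC-shZEB1, where 14.5% of all genes tested passed. Without the Ralyl cluster the counts were 3 higher and 1 lower of 9 tested, where 13.8% of genes passed, with Prrx1, Ovol1 and Ovol2 higher, and Twist1 went from a ratio of 4.06 (3.33 to 4.98) to 1.09 (0.811 to 1.45) and Prrx1 from 3.78 (3.23 to 4.45) to 1.92 (1.6 to 2.32). The member that was lower was Snai1, at 0.457 (0.395 to 0.526), and 0.504 without the Ralyl cluster. Prg4-Grem1 cells, in which Snai1 was highest, numbered 484 and 195, and the part of this change of mix in the pooled ratios was not tested, so the values within classes are given next. Twist2 stayed within the fold, at 0.686 (0.652 to 0.721) and 0.726. In Epcam-high cells 3 of 9 members were higher and 1 lower, where 11.6% of genes passed: Ovol1 stood at 1.54 (1.28 to 1.86), which ran from 1.15 to 1.91 over the alternative settings, and Twist1 and Prrx1, both near or below background there, stood at 2.04 and 2.24. Over the settings Twist1 ran from 1.08 to 6.81, without a call at its lowest, and Prrx1 from 1.41 to 2.44. Grhl2 stood at 0.829 (0.694 to 0.991) and Ovol2 at 1.29 (0.837 to 1.99), so that the epithelial factors did not move one way. In Prg4-Grem1 cells 1 of 6 members was higher, Prrx1 at 1.95 and near its background, where 10.9% of genes passed.

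**Figure D5:**
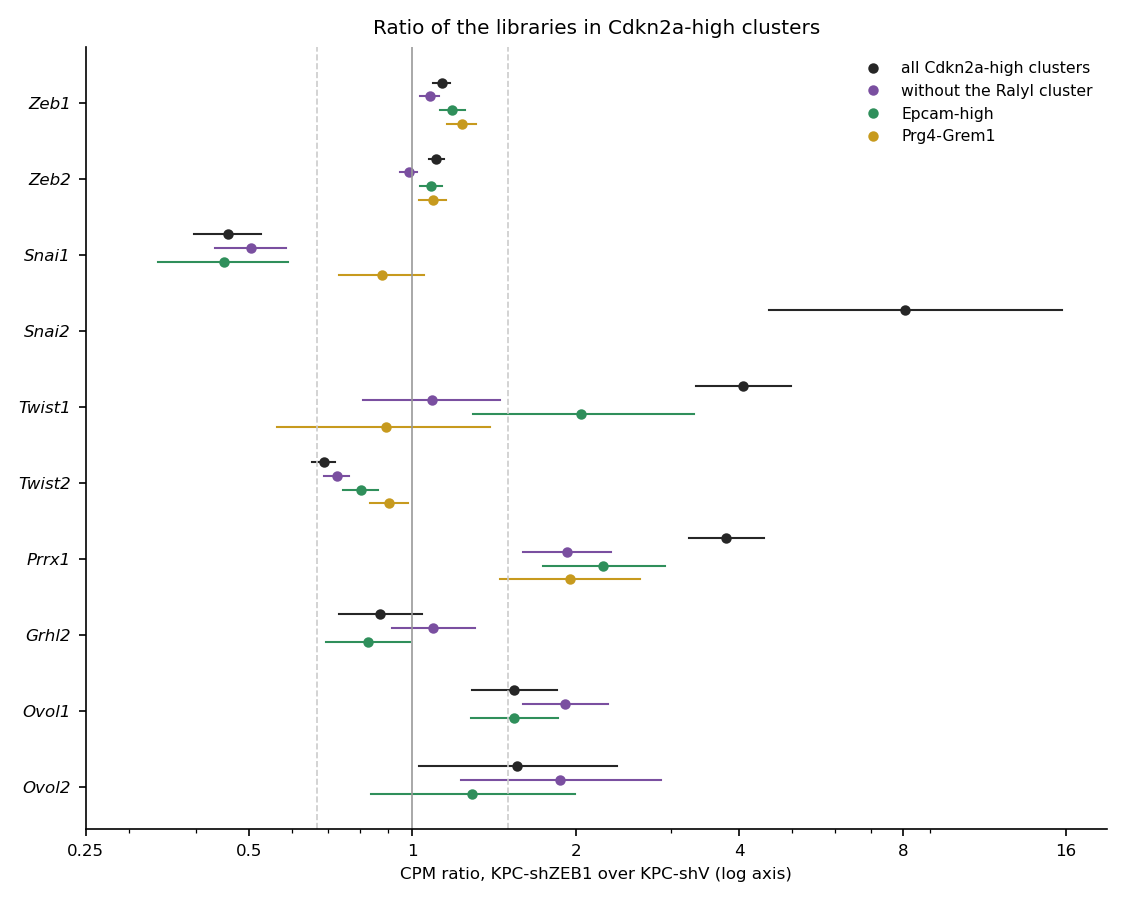
Ratio of CPM in the library labelled KPC-shZEB1 over that labelled KPC-shV for each of the 10 genes, on a log axis, in all Cdkn2a-high clusters, without the Ralyl cluster, in Epcam-high cells and in Prg4-Grem1 cells. Lines are 95% counting intervals and dashed lines mark 1.5-fold. Zeb1 lies between 1.08 and 1.23 in all 4, Twist1 and Prrx1 move toward 1 when the Ralyl cluster is left out, and a gene with under 50 UMIs in a class, such as Snai2 without that cluster, is not drawn.

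Host cells differed between the libraries in some of the same genes. In fibroblast-like cells 2 of 7 members were higher past 1.5-fold, where 11.1% of genes passed: Prrx1, at 1.53 (1.47 to 1.59), and Twist2, at 2.31 (1.90 to 2.82). Zeb1 was 1.08 (1.02 to 1.14) there. In endothelial-like cells 2 of 5 members passed against 14.2% of genes, Snai2 at 1.66 (0.966 to 2.85) and Prrx1 at 2.76 from 23 and 41 UMIs, and Zeb1 stood at 0.997. Prrx1 there was 8.20 and 22.6 CPM over a background of 8.14 and 16.1 CPM, and its ratio ran from 1.77 to 110 over the settings, the last with a background subtracted that left almost nothing in the first library. In T-like cells none of 4 passed, against 10.1% of genes. In granulocyte-like cells 1 of 5 passed, Prrx1 below its background, against 25.1% of genes and with a median log2 ratio of 0.27 over all genes, and Zeb1 stood at 1.49 (1.42 to 1.56) there and Zeb2 at 0.785 (0.774 to 0.796). In monocyte-macrophage-like cells 2 of 8 members (Zeb1 and Twist1) were higher and Snai1 was lower, against 10.2% of genes, with Zeb1 at 1.57 (1.46 to 1.68) while its background went from 25.8 to 49.6 CPM. With the background subtracted the Zeb1 ratio was 1.13 and no longer past the fold. The library with the higher Zeb1 background held 1226 B-like and 433 CD8 T-like cells, against 289 and 126. Whether these numbers bear on the background was not tested.

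The lists of target and partner genes held few genes past the fold between the libraries in Cdkn2a-high cells. None of 16 epithelial genes passed 1.5-fold, with a median log2 ratio of 0.15 beside 0.03 over all genes. Without the Ralyl cluster 5 of 16 were higher and 0 lower, with a median of 0.45, where 13.8% of genes passed in either direction: Cdh1 (1.57), Cldn3 (1.52), Dsp (1.86), Pkp3 (1.60) and St14 (1.69). Within Epcam-high cells 0 of 16 were higher and 1 lower, with a median of 0.11, where 11.6% of genes passed. In Prg4-Grem1 cells 3 of 11 tested were higher and 1 lower, with a median of 0.2, where 10.9% passed. Cdh1 went from 353 to 425 CPM in the former and from 13.6 to 17.8 CPM in the latter. Granulocyte-like cells had Cdh1 at 20.1 and 32.8 CPM, so the Prg4-Grem1 values do not show Cdh1 RNA of those cells' own. No background was subtracted from these list ratios. The part of the changed mix of classes in the pooled values was not tested. Over all Cdkn2a-high clusters Dsp (desmoplakin) and St14 (matriptase) were highest, at 1.5 and 1.38, and Cldn7 and Cdh3 lowest, at 0.697 and 0.717. Of 16 mesenchymal genes 2 were higher, Cdh2 (N-cadherin) from 2.51 to 16 CPM, a ratio of 6.37 (5.07 to 8.09), and S100a4 from 76.8 to 121 CPM, a ratio of 1.57, and neither passed without the Ralyl cluster. Fbn1 and Loxl2 were lowest, at 0.737 and 0.743, and the median was 0.08. Neither gene was lower within Epcam-high or Prg4-Grem1 cells. Of the related regulators, 17 of 18 had enough UMIs. Lower ones past the fold included Id3, an inhibitor of helix-loop-helix factors, from 104 to 52.1 CPM, and Tcf4, a helix-loop-helix partner of the TWIST proteins, from 516 to 321 CPM. Within classes Tcf4 did not pass: it went from 274 to 206 CPM in Epcam-high cells and from 860 to 740 CPM in Prg4-Grem1 cells. Id3 was lower past the fold in both, from 39.6 to 23.2 CPM and from 197 to 131 CPM. The Grhl2 relatives Grhl1 and Grhl3 stood at 1.46 and 1.45. None of 16 corepressors and TGF-beta pathway genes passed, with Tgfb2 and Tgfb3 highest at 1.48 and 1.18, Ctbp1 and Gsk3b lowest at 0.825 and 0.876, and a median of -0.07.

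In fibroblast-like cells, where 11.1% of all genes passed, the lists differed in how many did. Of 11 epithelial genes tested, 2 were higher and 2 lower, with Dsp at 2.15, St14 at 1.71, Cdh3 at 0.405 and Cldn3 at 0.651. All but Cdh3 stood near their levels in granulocyte-like cells. Dsp had 2.20 and 4.73 CPM against 2.50 and 3.78 CPM there. St14 had 2.38 and 4.08 CPM against 4.47 and 5.78 CPM, and Cldn3 25.1 and 16.3 CPM against 21.0 and 26.9 CPM. No background was subtracted, and its part in these ratios was not tested. One of 16 mesenchymal genes was lower, Foxc2 at 0.316, with Cdh11 next at 0.776 and S100a4 and Sparc highest at 1.24 and 1.22. Id3 was the 1 of 13 regulators that was lower, at 0.537, and Id1, Ehf and Klf5 stood at 0.697, 1.29 and 1.21. Tgfb3 was the 1 of 16 corepressors and pathway genes that was lower, at 0.588, with Fbxl14 at 0.788 and Tgfb1 and Ctbp2 at 1.05 and 1.04.

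The genes whose levels over the classes were most like those of each member were ranked by Pearson correlation of log2(CPM + 1) over 28 class-and-library points among 13053 genes, a description since points of 1 library share its background. For Zeb1 they were St6galnac3 (0.919), Ppp1r12a (0.914) and Ccdc117 (0.907), and for Zeb2 Rnf149 (0.9), Ccl4 (0.883) and Fth1 (0.854). Snai1 was nearest to Cebpd (0.874), Rnf11 (0.872) and Jun (0.826), and Snai2 to Nrep (0.906), Sema3a (0.903) and Sele (0.893). Twist1 ran with Osr1 (0.894), Epdr1 (0.880) and Aebp1 (0.879), Twist2 with Stam (0.925), Sox9 (0.923) and Mir100hg (0.922), and Prrx1 with the collagen genes Col5a2 (0.938) and Col1a1 (0.932) and with Nova1 (0.93). The epithelial factors ran with Cyp3a13 (0.859), Sema4g (0.798) and Akr1c19 (0.781) for Grhl2, Clca3b (0.860), Atp10b (0.849) and Mal2 (0.823) for Ovol1 and Duox2 (0.776), Camsap3 (0.770) and Lad1 (0.743) for Ovol2.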

How the data were processed

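Single-cell 3′ libraries of 2 orthotopic tumours, 1 mouse each, were analysed as deposited. Per the labels, the authors ran Cell Ranger 7.0.1 against mm10, and the deposited values are raw UMI counts per gene and barcode. Whether intron reads were counted is not given in the sources used here. Groups come from the treatment field of the sample labels, which names the injected cells.

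Filters required 500 genes or more per barcode, a total of 1000 to 60000 UMIs and a mitochondrial share no higher than 15%, which left 11713 and 12447 barcodes. Of these, 315 (2.69%) and 343 (2.76%) with a doublet score above 0.2 were removed (scanpy 1.11.5). Cells were clustered together (3000 variable genes without 76 member and list genes, 30 components, 20 neighbours, Leiden resolution 1, leidenalg 0.10.2) into 28 clusters, and T and NK cells again (resolution 1.5) into 16 sub-clusters, of which 14 were kept. A cluster took a cell type's name with at least 3 of its markers. Cdkn2a-high clusters were those with Cdkn2a at least 5 times higher and Xist at least 3 times lower than in the median cluster, a rule added after the clusters were seen. Epcam-high clusters had at least 50% of the Epcam level of the most Epcam-rich Cdkn2a-high cluster.

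Counts were summed per class and library. Intervals are exact Poisson for levels, conditional binomial for ratios and Clopper-Pearson for shares, and cover counting error only (scipy 1.17.1). A gene was tested with at least 50 UMIs over both sides and at least 1 on each, and passed at a ratio of 1.5 or its inverse. The background level is the median relative level of other cell types' markers in a class, multiplied by the library level of the gene. Shares of cells used cells thinned to 1000 or 10000 UMIs, the latter chosen after the data were seen, as was the split by epithelial factor UMIs. Steps were tested on simulated counts. Coordinates are GENCODE M21 on GRCm38.

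Named genes are the 10 members, the 2 highest and 2 lowest ratios of each list in Cdkn2a-high and fibroblast-like cells, list genes past the fold in Cdkn2a-high cells when 6 or fewer, and the 3 genes most like each member. Genes named beside the split (Cdh1, Epcam, Rab25, Vim, Itgb3, Krt8) were chosen after their values were seen. The members and lists were chosen with earlier results of these data known. Alternatives varied filters, resolution, scaling, thinning, background and fold. One related regulator is not reported here.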

Additional observations from a re-analysis of the deposited data

Results flagged for a closer look

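Twist2 moved apart in 2 host classes under the same contrast. Its ratio of the library labelled KPC-shZEB1 over that labelled KPC-shV was 2.31 (1.90 to 2.82) in fibroblast-like cells, from 13.5 to 31.1 CPM, and 0.692 (0.551 to 0.869) in monocyte-macrophage-like cells, from 6.23 to 4.31 CPM. Both monocyte-macrophage levels lay at or below the background of 6.48 and 5.86 CPM, and with 1 library per group the difference between the classes was not tested.

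The ZEB pair also differed between the libraries in small clusters outside every comparison. In the cluster led by Reg3b and Reg1 (21 and 254 cells), Zeb1 went from 38.0 to 143 CPM, a ratio of 3.75 (1.68 to 10.4), the first from 6 UMIs and at its background of 42.3 CPM and the second over a background of 67.4 CPM. Zeb2 there went from 583 to 981 CPM, a ratio of 1.68. In the cluster led by Cp and Pkhd1 (7 and 27 cells), Zeb2 went from 105 to 211 CPM, a ratio of 2.01, both below the background of 197 and 234 CPM.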

How the results depend on the processing

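No paired analysis was possible because each group held 1 library, and no replicate could be left out. Over all settings 1966 levels moved by less than their counting interval and 414 by more, and 590 ratios stayed, 91 moved and 3 reversed, while 267 shares stayed and 253 moved. The Zeb1 ratio in Cdkn2a-high cells was 0.998 with background subtracted and 1.08 without the Ralyl cluster. Zeb1 in Epcam-low over Epcam-high cells was 1.70 and 1.61, 1.56 and 1.46 with 1 cluster taken as Epcam-high, and 2.01 in both libraries with background subtracted. The share of Epcam-high cells with Zeb1 among those with Grhl2 was 51.9% and 70.3% unthinned. The Zeb1 ratio of cells with over cells without an epithelial factor was 0.122 and 0.127 with background subtracted. Genes past the fold in Cdkn2a-high cells numbered 2213, 5740 with no UMI minimum and 896 at 2-fold. Epithelial genes past it went from 0 to 5 without the Ralyl cluster, mesenchymal genes from 2 to 0 there and to 1 at 2-fold, and related regulators from 3 to 5 and to 1. The reversals were Snai1 in Epcam-high cells at 1.15 with each library clustered alone and Prrx1 in Ralyl cells at 0.633 with no upper UMI limit and 0.244 at resolution 0.5. The cause of each was not tested. No Prg4-Grem1 cluster formed at resolution 0.5 or in the library labelled KPC-shZEB1 alone, and no Ralyl cluster in that labelled KPC-shV alone. Ovol1 in Epcam-high cells ran from 1.15 to 1.91, Prrx1 there from 1.41 to 2.44 and Twist2 in fibroblast-like cells from 2.05 to 4.88. Depth limits Snai2, Ovol2 and pericyte-like values, which rest on few UMIs.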

Other observations

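The cluster led by Cp and Pkhd1, too small for any comparison with 7 and 27 cells, held the epithelial factors without high Cdkn2a. Grhl2 stood at 57.6 and 60.3 CPM, Ovol1 at 41.9 and 35.5 CPM and Ovol2 at 5.24 and 10.6 CPM, the last from 1 and 6 UMIs, and Epcam at 1357 and 1217 CPM. Its Zeb1, at 31.4 and 72.7 CPM from 6 and 41 UMIs, was near its background of 35.5 and 62.0 CPM. Cdkn2a stood at 31.4 and 19.5 CPM and Xist at 1582 and 1299.9 CPM, against at least 237 and at most 60.6 CPM in the Cdkn2a-high classes.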
